A study of Drosophila melanogaster with 8 samples.

Results

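The genes of fatty acid and storage lipid metabolism were examined for binding of KDM5, a chromatin regulator with a histone demethylase domain, in the prothoracic gland of Drosophila. The group was set by function and holds 33 genes of 13945 annotated protein-coding genes, placed here in 7 role groups: acetyl-CoA supply and fatty acid synthesis, activation with desaturation and elongation, mitochondrial beta-oxidation, peroxisomal oxidation, triglyceride synthesis, lipid droplets with lipolysis, and the transcription factor SREBP with its processing proteins. The 33 genes were chosen with earlier results of these data known, so their count of bound genes was not tested. A gene was counted as bound when it had a row, with a binding score, on the gene list that the authors made from their peaks, and as not bound when it had none.

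Binding was mapped by Targeted DamID (TaDa), in which a DNA adenine methyltransferase (Dam) fused to a protein marks GATC sites near the places that protein visits. The 8 samples were 4 with the Dam:KDM5 transgene UAS-LT3-damkdm5 and 4 with the Dam transgene UAS-LT3-dam. Both genotypes also carried the driver spok-Gal4, active in the prothoracic gland, and the temperature-sensitive repressor tub-Gal80[ts]. Eggs were laid over 24 h at 18°C, and the untreated animals spent 5 days at 18°C and then 2 days at 29°C, where the transgene is expressed, before collection as wandering larvae of the third instar. Each sample was a homogenate of 100 larvae, so the gland restriction rested on the driver, and the larvae also kept their own KDM5 gene. The files used here hold 1 averaged profile of Dam:KDM5 over Dam, with no values for single samples, so no score below has a replicate error, the depth of each sample is unknown and no test between genes was made.

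The prothoracic gland makes the steroid hormone ecdysone from dietary cholesterol. Fatty acids are built in the cytosol from acetyl-CoA, activated to acyl-CoA, and then either joined to glycerol and stored as triglyceride in lipid droplets or carried into mitochondria and shortened by beta-oxidation. SREBP is a membrane-bound transcription factor that is cut free to activate fatty acid synthesis genes. In flies it responds to phospholipid rather than to sterols, which flies cannot make.

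KDM5 peaks lay in most of these genes. Of the 33, 25 were bound (75.8%), beside 38.5% of all protein-coding genes (5364 of 13945). The median score of the 25 was 6.28, with a range of 3.22 to 8.83, beside a median of 4.75 and quartiles of 3.46 and 6.22 over all bound genes. The score is the authors' value for Dam:KDM5 relative to Dam, on a scale whose log base is not given in the sources used here. Of the 25 bound lipid genes, 18 were above the median of bound genes, 13 were at or above the upper quartile and 3 were at or below the lower quartile. All 25 carried at least 1 peak in the annotated gene body, and in each the listed score was that of the highest such peak. The bound lipid genes were longer than bound genes in general, with medians of 7094 and 2972 bp. The part of length and peak number in the scores was not tested. With the mean of a gene's peaks in place of the highest, the median of the 25 was 4.9. No all-gene value on that measure is given here.

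Each of the 7 role groups had at least 1 bound gene. The 8 genes that were not bound were FASN2, FASN3, CPT2, Mtpbeta, Etf-QO, Acox57D-d, Dgat2 and Hsl. For FASN2, FASN3, Mtpbeta, Acox57D-d and Dgat2, a paralog, the partner subunit or another enzyme of the same reaction was bound. The highest scores by role group were in fatty acid synthesis, with a median of 7.69 over 4 bound genes, and in beta-oxidation, with 6.96 over 5. The lowest was in SREBP and its processing proteins, with 3.42 over 4. With no replicate spread, neighbouring scores in this order cannot be ranked against error.

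**Figure D1:**
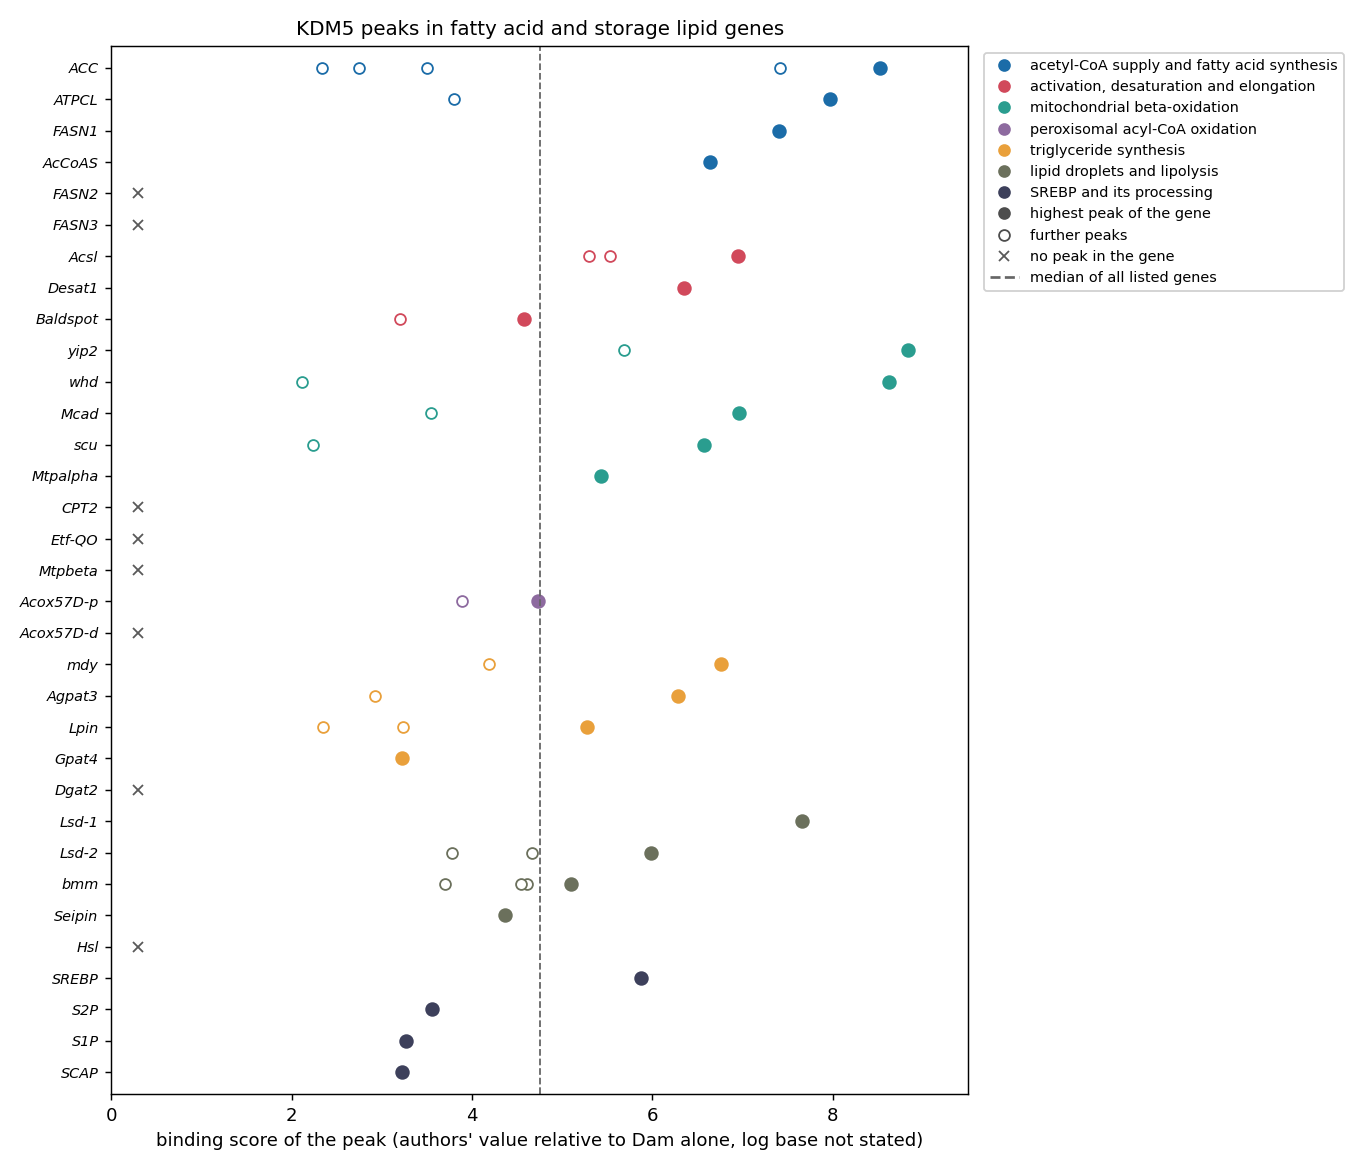
Binding score of each KDM5 peak (horizontal axis, authors' value, log base not stated) in each of the 33 genes (vertical axis), coloured by role group. Filled points are the highest peak of a gene, open points its further peaks, crosses genes with no peak, and the dashed line the median of 4.75 over all bound genes. The highest peaks of ACC, yip2 and whd stand above 8.5 and those of Gpat4, SCAP and S1P below 3.3.

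The entry into fatty acid synthesis was bound at each enzymatic step. ACC, the acetyl-CoA carboxylase that commits acetyl-CoA to fatty acids, had a score of 8.52, rank 113 of the 5364 bound genes. ATPCL, the ATP citrate lyase that makes cytosolic acetyl-CoA, scored 7.97. AcCoAS, which makes acetyl-CoA from acetate, scored 6.64. FASN1, the main fatty acid synthase, scored 7.4, while its paralogs FASN2 and FASN3, known for their roles in oenocytes, were not bound.

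ACC had the most peaks of the 33 genes, 5 along 17748 bp. Its highest peak (chr2R:7988057-7989698) lay within an intron-rich stretch 16 bp from an internal start 2148 bp from the first, and was also over Nup44A, a nucleoporin gene whose start was nearer its centre. The second, scored 7.41 (chr2R:7985703-7986891), covered the coding start and was nearest a start of ACC itself. The peak over the first ACC start scored 2.75. The 2 remaining peaks scored 3.5 and 2.34, the lower of which ran past the 3′ end into CSN4. The ATPCL peak (chr2R:15999431-16001080) covered an internal start 1002 bp from the first and the coding start, with 1291 of its 1650 bp intronic. A second ATPCL peak scored 3.8. The AcCoAS peak was narrow, 543 bp, and lay 360 bp inside the nearest start.

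FASN1 and FASN2 lie head to tail on chromosome 2L, with 454 bp between them, and only the downstream gene was bound. The FASN1 peak (chr2L:3057116-3058428, score 7.4, FDR 2.40e-10) was wholly intronic, 1313 of 1313 bp, and began 127 bp from an internal FASN1 start. The nearest peak to FASN2 was this same one, 972 bp past its 3′ end. The first start of FASN2 was 2481 bp from the nearest peak, which scored 5.13. FASN3 stood on chromosome 3L with 636756 bp to the nearest peak. Beyond that peak the arm had 13 protein-coding genes, of which 1 was bound.

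The 250 bp before the first start of each synthase and the centre of the FASN1 peak are shown because the bound and the unbound copy lie side by side. All are from the dm6 assembly, plus strand, 5′ to 3′, with GATC, the site that Dam methylates, in capitals. Neither stretch before a start lay in a peak, and both held at least 1 GATC site.
FASN1 before the first start, chr2L:3056348-3056597: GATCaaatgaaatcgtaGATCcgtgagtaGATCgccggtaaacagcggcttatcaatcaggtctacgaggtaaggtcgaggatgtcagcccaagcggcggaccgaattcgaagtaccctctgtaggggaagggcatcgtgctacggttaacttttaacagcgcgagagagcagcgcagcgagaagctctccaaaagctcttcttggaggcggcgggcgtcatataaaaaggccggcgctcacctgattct
FASN2 before the first start, chr2L:3043697-3043946: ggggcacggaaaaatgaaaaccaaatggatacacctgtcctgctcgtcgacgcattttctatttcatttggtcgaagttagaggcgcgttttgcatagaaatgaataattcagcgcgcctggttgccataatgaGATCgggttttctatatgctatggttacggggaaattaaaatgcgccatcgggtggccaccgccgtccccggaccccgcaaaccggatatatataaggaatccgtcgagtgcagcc
FASN1 peak centre, chr2L:3057622-3057921: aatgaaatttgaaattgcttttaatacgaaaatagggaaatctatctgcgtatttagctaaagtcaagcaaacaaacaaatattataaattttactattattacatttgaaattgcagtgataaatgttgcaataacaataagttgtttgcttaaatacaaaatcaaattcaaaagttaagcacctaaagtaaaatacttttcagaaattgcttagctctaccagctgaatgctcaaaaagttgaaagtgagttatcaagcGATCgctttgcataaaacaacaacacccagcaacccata
The stretch before FASN1 had 3 GATC sites and 53.6% GC, that before FASN2 had 1 site and 49.2% GC, and the intronic peak centre had 1 site and 29% GC.

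The 3 genes taken here for activation, desaturation and elongation were all bound, beside 38.5% of all protein-coding genes. Of further genes of these families, given below, 2 of 13 acyl-CoA synthetases, 5 of 19 elongases and 5 of 9 desaturases and partners were bound. Acsl, a long-chain acyl-CoA synthetase, scored 6.95. Desat1, the stearoyl-CoA desaturase, scored 6.35, and Baldspot, an elongase of the ELOVL6 family, scored 4.58, just under the median of bound genes. Acsl had 3 peaks, at 6.95, 5.53 and 5.3, which covered 41.5% of its 17210 bp. The peak of 5.3 was shared with UQCR-11L and nearest the UQCR-11L start. The single Desat1 peak (chr3R:12442750-12444857) covered 2 of 5 annotated starts, both internal, the nearer to its centre 3982 bp from the first. The Baldspot peak was the widest of all peaks in these genes, 3870 bp, and covered the only annotated start and the coding start.

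Mitochondrial beta-oxidation was bound at its carnitine entry step and along the spiral, with gaps. yip2, an acetyl-CoA acyltransferase that carries out the thiolase step, had the highest score of the 33 genes, 8.83, rank 55 of 5364. whd, the carnitine palmitoyltransferase that admits fatty acids to mitochondria, scored 8.62, rank 90. Mcad, the medium-chain acyl-CoA dehydrogenase, scored 6.96, scu, a hydroxyacyl-CoA dehydrogenase, 6.57, and Mtpalpha, the alpha subunit of the trifunctional protein, 5.43. CPT2, the inner-membrane carnitine transferase that acts after whd, Mtpbeta, the beta subunit, and Etf-QO, which passes the electrons on to ubiquinone, were not bound.

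The yip2 score belonged to a peak at the 3′ end of the gene. That peak (chr2L:9916742-9918075, FDR 7.78e-18) had 479 bp in yip2 and 855 bp beyond it, was also over CG5885, and was nearest the CG5885 start. The yip2 peak nearest its own start, 421 bp inside the gene, scored 5.69. The whd peak (chr2R:10474831-10476535) covered an internal start 3086 bp from the first and no other gene, with 1478 of 1705 bp intronic. A second whd peak at the 3′ end scored 2.12 and was shared with CG11777 and Caf1-105. The Mcad peak began 7 bp inside the start and was shared with CG32373 and CG7457, and the scu peak was the narrowest of the 47, 395 bp, 126 bp inside the start.

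The trifunctional protein had 1 bound and 1 unbound subunit gene. The Mtpalpha peak (chr2L:9576670-9577543) covered the start, with only 100 of its 874 bp in the gene and its centre at -338 bp relative to the start. Mtpbeta had a peak of 6.23 over CG5569 and Cpes 793 bp away, and its start was 2172 bp from a peak of 7.43. CPT2 was isolated, with 53019 bp to the nearest peak. None of the 9 protein-coding genes within 50 kb of CPT2 was bound. Etf-QO lay 11236 bp from the nearest peak, in the Mef2 gene, although 11 of its 16 neighbours within 50 kb were bound.

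The stretches before the starts of Mtpalpha and CPT2 are shown as a bound and an unbound start of the same pathway, each 250 bp of dm6 read 5′ to 3′ on the strand of the gene, minus for Mtpalpha and plus for CPT2, with GATC in capitals. The Mtpalpha stretch lay in its peak over all 250 bp and had 1 GATC site. The CPT2 stretch had 4 and lay in no peak.
Mtpalpha before the first start, chr2L:9576770-9577019: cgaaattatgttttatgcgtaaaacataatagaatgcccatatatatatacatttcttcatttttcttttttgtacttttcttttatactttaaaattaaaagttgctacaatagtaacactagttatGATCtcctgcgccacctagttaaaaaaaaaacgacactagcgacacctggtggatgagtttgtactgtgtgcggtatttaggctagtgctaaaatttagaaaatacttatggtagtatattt
CPT2 before the first start, chr3L:2980772-2981021: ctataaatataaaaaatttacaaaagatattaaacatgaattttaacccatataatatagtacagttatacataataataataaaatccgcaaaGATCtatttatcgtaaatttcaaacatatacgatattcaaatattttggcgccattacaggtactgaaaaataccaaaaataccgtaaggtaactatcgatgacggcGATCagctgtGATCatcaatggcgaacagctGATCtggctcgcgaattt
Both stretches were 30% GC.

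The peroxisomal acyl-CoA oxidases, which shorten fatty acids in peroxisomes, were also 1 bound and 1 unbound gene. Acox57D-p scored 4.73 and Acox57D-d, its tandem copy 128 bp downstream, was not bound. The Acox57D-p peak (chr2R:21386329-21387378) covered an internal start and the coding start, and 895 of its 1050 bp were exonic. A second peak of 3.89 reached 11 bp into the gene from eEFSec. Acox57D-d began 2026 bp from the nearest peak, that of Acox57D-p.

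Triglyceride synthesis was bound in 4 of 5 genes, beside 38.5% of all protein-coding genes. On the authors' list these 4 covered each step from glycerol-3-phosphate onwards. Other definitions, given below, left 3 of 5, without mdy by the rules based on starts and without Gpat4 at the stricter FDR or higher score. Gpat4, a glycerol-3-phosphate acyltransferase of the first step, scored 3.22. Agpat3, of the second acylation, scored 6.28. Lpin, the phosphatidate phosphatase that yields diacylglycerol, scored 5.28, and mdy, the diacylglycerol acyltransferase DGAT1, 6.76. Dgat2, the other diacylglycerol acyltransferase, had no peak within 12198 bp.

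The peaks of this group differed in where they lay. The Gpat4 peak covered both annotated starts, was shared with yki, and had the highest FDR of the 47 peaks, 9.26e-03. The Agpat3 peak covered 2 of 5 starts. The Lpin peak lay 18 bp from an internal start 10674 bp from the first, and the further Lpin peaks of 3.24 and 2.35 were wholly intronic in Lpin and shared with kermit, which overlaps it. The mdy peak (chr2L:16819535-16819961, 427 bp) was intronic, 2427 bp from the nearest mdy start and nearer that of CG13280, which overlaps mdy on the other strand. A second mdy peak of 4.19 was likewise shared, with Cse1.

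The lipid droplet and lipolysis genes of this set were bound in 4 of 5 cases, beside 38.5% of all protein-coding genes. Of further lipases and droplet proteins, 5 of 13 were bound. Lsd-1 and Lsd-2, the perilipins that coat droplets, scored 7.66 and 5.98. bmm, the fly relative of adipose triglyceride lipase, scored 5.1 and Seipin, which acts in droplet assembly, 4.36. Hsl, the hormone-sensitive lipase, was not bound. Its start was 1053 bp from a peak of 8.84 over its neighbour Ate1, a score above that of any of the 33 genes.

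The perilipin peaks lay inside their genes, 542 bp from the nearest start in Lsd-1 and 1252 bp in Lsd-2. Lsd-2 had 3 peaks, at 5.98, 4.66 and 3.78, covering 34.7% of the gene. bmm had 4, at 5.1, 4.61, 4.54 and 3.7, covering 43.8% of its 9917 bp. The peak of 3.7 ran past the 3′ end, with 381 of its 2635 bp in bmm, and was shared with mop. The peaks of 4.61 and 3.7 were both nearest a start of mop. The highest bmm peak (chr3L:14784458-14787097) covered the start and the coding start, was shared with Tdrd3, and had an FDR of 8.56e-32, the lowest of the 47 and the same as that of the next 2 bmm peaks. The Seipin peak was centred at -36 bp relative to the start and nearer that of the divergent neighbour Tsp3A.

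The sequence before bmm is shown because it lay wholly in the peak and held a DRE, the element bound by the transcription factor DREF and found at many housekeeping promoters of the fly. It is 250 bp of dm6, minus strand, 5′ to 3′, with the DRE letters TATCGATA in capitals.
bmm before the first start, chr3L:14786413-14786662: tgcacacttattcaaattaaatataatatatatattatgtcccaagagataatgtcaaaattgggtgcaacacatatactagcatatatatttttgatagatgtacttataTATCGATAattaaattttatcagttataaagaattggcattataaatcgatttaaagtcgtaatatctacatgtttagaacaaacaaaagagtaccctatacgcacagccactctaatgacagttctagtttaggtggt
It held no GATC and was 27.6% GC. Among the 33 genes the DRE occurred in this stretch of bmm and of Desat1 only, 6.06%, beside 8% of all promoters. Both genes were bound, but the Desat1 stretch with the DRE lay in no peak. Over all genes the DRE was in 12.4% of promoters of bound genes and 5.24% of others.

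SREBP and its 3 processing proteins were bound in 4 of 4 cases on the authors' list, beside 38.5% of all protein-coding genes. Scores were low apart from that of SREBP itself. When only the 2465 peaks of highest score counted, 1 of 4 was left (25%), beside 20.7% of all genes. SREBP scored 5.87. S2P and S1P, the proteases that cut it, scored 3.56 and 3.27, and SCAP, the escort that carries it from the endoplasmic reticulum to the Golgi, scored 3.22. The scores of the 3 processing genes were all below the median of bound genes, S1P and SCAP below the lower quartile as well. The S1P peak was shared with CG11307 and the S2P peak with CG34229, each nearer the start of the other gene. The SCAP peak, of 855 bp, lay 3327 bp inside the gene, and the nearest peak to its start, of 2.94, lay outside.

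The SREBP peak (chr3L:19794304-19795925, FDR 6.83e-24) lay in a coding exon more than most, with 1016 of its 1622 bp coding and 437 bp intronic. Its middle 300 bp are shown because the whole stretch encodes protein. The sequence is from dm6, plus strand, 5′ to 3′, with GATC in capitals.
SREBP peak centre, chr3L:19794964-19795263: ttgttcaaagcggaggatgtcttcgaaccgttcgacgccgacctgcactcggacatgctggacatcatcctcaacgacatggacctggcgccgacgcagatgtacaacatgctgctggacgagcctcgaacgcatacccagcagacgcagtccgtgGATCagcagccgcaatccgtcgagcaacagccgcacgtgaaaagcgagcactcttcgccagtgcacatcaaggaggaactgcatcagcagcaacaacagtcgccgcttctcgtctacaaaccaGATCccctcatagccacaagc
This stretch had 2 GATC sites and 57.3% GC.

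The highest peak of each of the 25 bound genes was taken from the peaks that overlapped the gene body. A position in the gene was thus partly set by that rule. Relative to the first start, the centres of these peaks ranged from -752 bp (S1P) to 11534 bp (Lpin). The 25 peaks covered an annotated start in 11 cases and lay within 1 kb of one in 21. The exceptions were yip2, mdy, Lsd-2 and SCAP. In 20 the centre was downstream of the nearest start, in 17 the peak was wholly within the gene, and in 16 it had more intronic than exonic bases. No such counts over all bound genes are given here, so these positions are not shown to be particular to lipid genes. Over all protein-coding genes too, peak coverage was highest downstream of the first start, 22.4% at 700 bp. Finer positions were not resolved, because peak edges are set by GATC sites. All 4931 peaks began and ended at one, and the 47 peaks in these genes spanned 3 to 9 GATC fragments each, with a median of 5.

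Over all 33 genes, bound or not, coverage first reached its highest share, 42.4%, at 1500 bp downstream of the first start, beside 18.5% of all protein-coding genes. All genes reached theirs, 22.4%, at 700 bp, where the lipid genes were at 39.4%. More of the lipid genes were bound, 75.8% beside 38.5%, and the part of this in the gaps between the curves was not tested. At 600 bp downstream the shares were 33.3% and 22.3%, at the start 24.2% and 16.5%, and at 600 bp upstream 18.2% and 15%. Further upstream the order turned. At each 100 bp step from 700 to 2000 bp before the start the lipid genes lay below or level with all genes. The shares were 9.09% and 15.4% at 800 bp, and 15.2% for both at 1100 bp. From 2100 to 3000 bp before the start the lipid genes lay above all genes again, for example 24.2% beside 13% at 2500 bp.

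Of the 25 bound genes 13 had several annotated starts, and in 13 of 13 the highest peak was nearest an internal start, over 1 kb from the first in 6 (ATPCL, ACC, Desat1, whd, Agpat3 and Lpin). Of all 2050 bound genes with several starts and a peak in the body, the highest peak was nearest an internal start in 76.4%, over 1 kb from the first in 32.3%. The part of these starts in the profile was not tested.

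**Figure D2:**
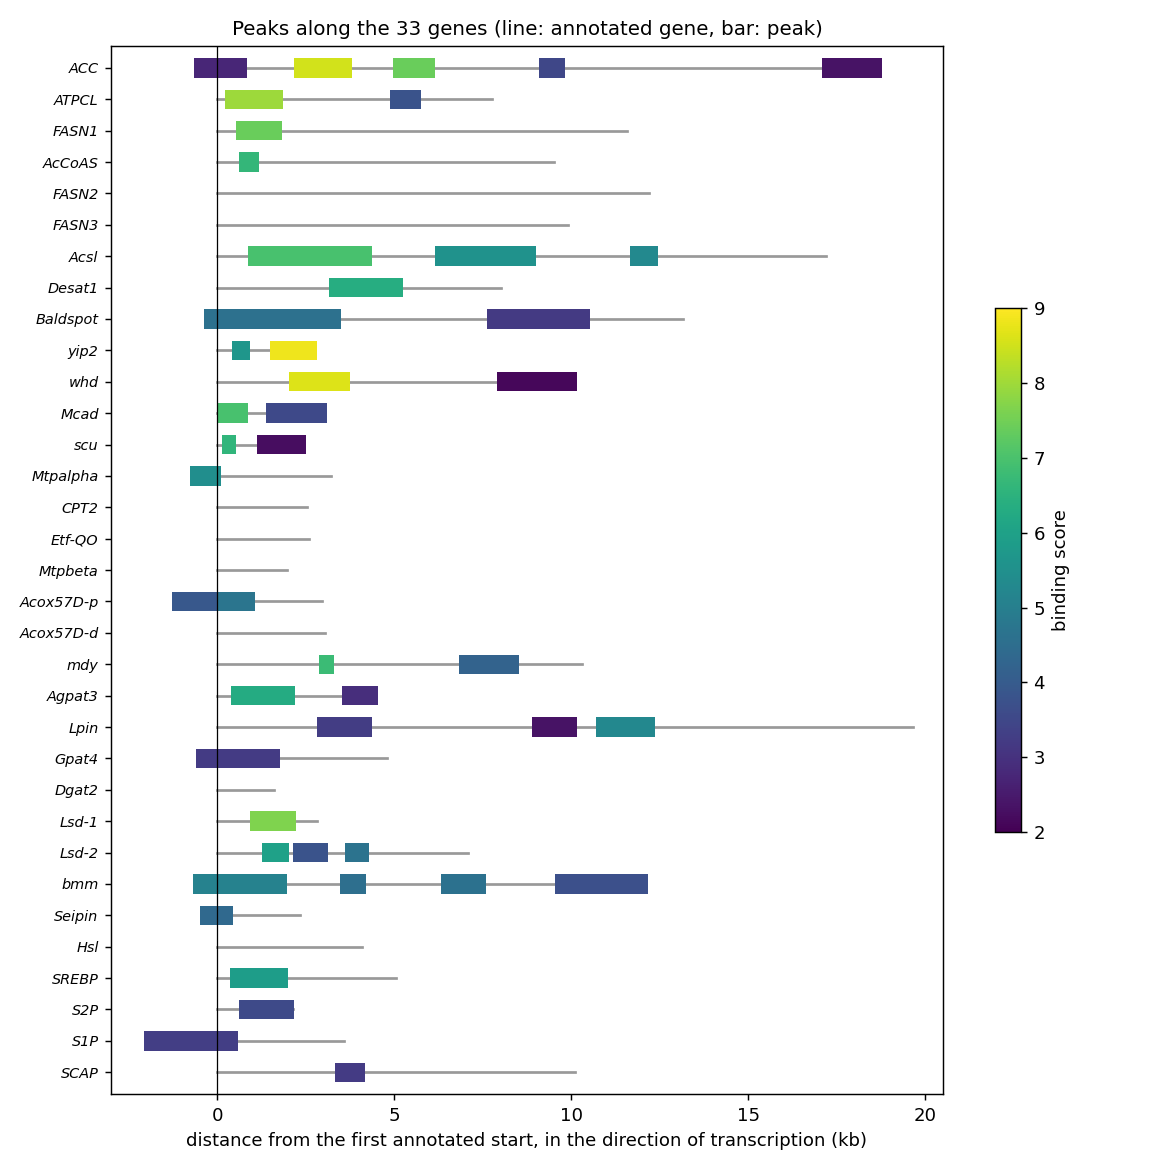
KDM5 peaks (bars, coloured by binding score) along the 33 genes (grey lines), as distance in kb from the first annotated start in the direction of transcription. Most leading peaks sit within the first few kb of the gene. The 5 peaks in ACC and 4 in bmm are spread along these genes, and some of them are shared with neighbouring genes.

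**Figure D3:**
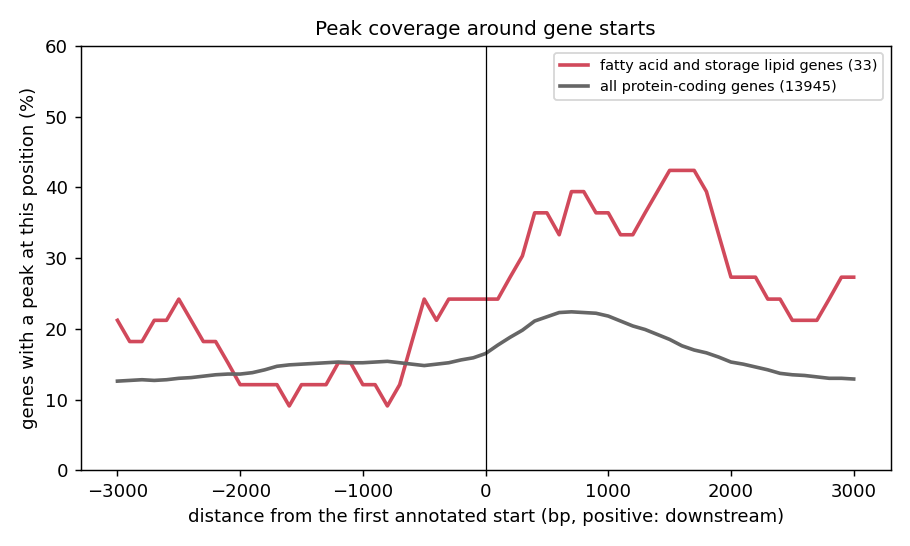
Share of genes covered by a peak (vertical axis, %) against distance from the first annotated start (horizontal axis, bp), for the 33 lipid genes (red) and all 13945 protein-coding genes (grey). The lipid genes first reach their highest share, 42.4%, at 1500 bp downstream, where all genes are at 18.5%. All genes are highest at 700 bp downstream, 22.4% beside 39.4% of the lipid genes. The lipid genes lie below or level with all genes from 700 to 2000 bp upstream and above them from 2100 to 3000 bp upstream.

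Sharing of peaks limits which gene a score belongs to. Of the 25 highest peaks, 16 were over 1 protein-coding gene and 9 over more, those of ACC, yip2, Mcad, Gpat4, mdy, bmm, Seipin, S1P and S2P. A rule chosen after seeing the data took, for each gene, the highest of its peaks that lay nearest its own start. Such a peak was found in 21 of the 25, with a median of 6.28. That value is over fewer genes than the 6.28 of the 25, so their equality does not show that the scores were unchanged. The score fell below the listed one in ACC (7.41 against 8.52) and yip2 (5.69 against 8.83). The genes mdy, Seipin, S1P and S2P had no peak nearest their own start and dropped out. Their listed scores were 6.76, 4.36, 3.27 and 3.56, all but that of mdy below the median of bound genes.

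Several other definitions of a bound gene were tried, and none added a lipid gene. Those by 200 bp, stricter FDR and higher score could not add one. They are narrower forms of the 1 bp overlap, which gave the same 25 genes as the list. Overlap of the gene body with a peak by 1 bp gave 25 of the 33, beside 38.7% of all genes, and by 200 bp gave 24, beside 36.9%, with Mtpalpha lost. A peak within 1 kb of any annotated start was found for 23, beside 39.9%, without mdy and Lsd-2. Within 500 bp it was found for 20, beside 32%, without mdy, Lsd-1, Lsd-2, SCAP and S2P. Giving each peak to the 1 gene with the nearest start left 21, beside 29%, without mdy, Seipin, S1P and S2P. Peaks with an FDR under 0.0001 lay in 22, beside 29.2%, without Gpat4, S1P and S2P, and the 2465 peaks of highest score lay in 20, beside 20.7%, without Gpat4, Seipin, SCAP, S1P and S2P. The bound genes of fatty acid synthesis (4) and of activation, desaturation and elongation (3) were kept under each of these definitions.

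**Figure D4:**
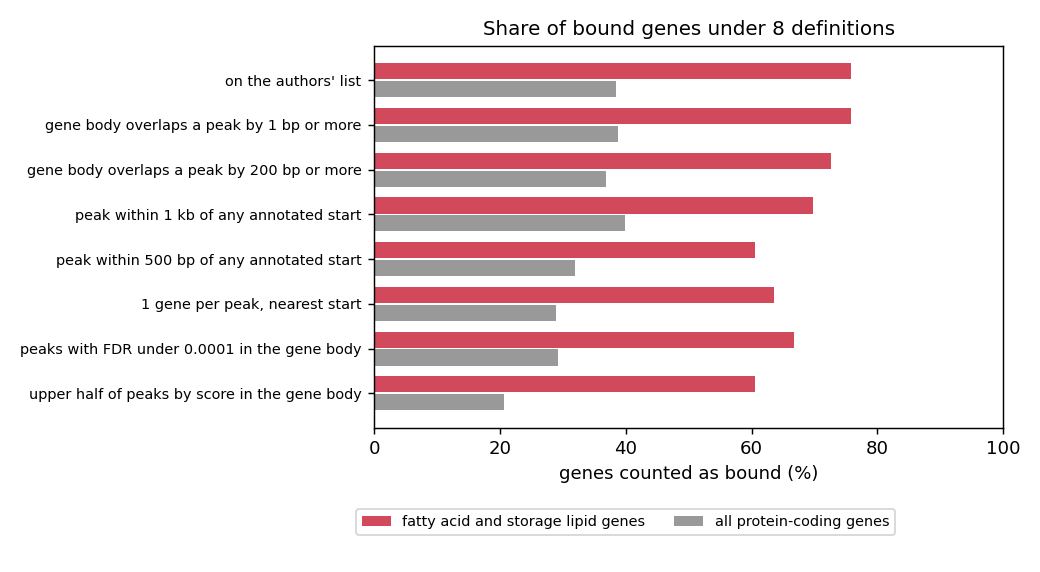
Share of genes counted as bound (horizontal axis, %) under 8 definitions (vertical axis), for the 33 lipid genes (red) and all 13945 protein-coding genes (grey). The lipid genes lie between 60.6% and 75.8% and all genes between 20.7% and 39.9%.

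Gene length moved with binding. The 25 bound lipid genes were longer, with medians of 7094 bp and 22 GATC sites, against 2815.5 bp and 11 sites in the 8 unbound ones. Over all protein-coding genes the median lengths were 2972 bp for bound and 1768 bp for other genes. All genes were put in 5 classes of about equal size by length. In the longest, 6458 bp and over, 50.4% of genes were bound, and in the shortest, up to 1022 bp, 17.4%. The longest class held 15 of the 33 lipid genes, of which 13 were bound. In the class of 2839 to 6455 bp 6 of 8 were bound, beside 49.7% of all its genes, and in that of 1717 to 2838 bp 5 of 8, beside 41.9%. The part of length in the count was not tested beyond these classes.

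The surroundings of bound and unbound lipid genes overlapped. Of the protein-coding neighbours within 50 kb of a bound lipid gene a median of 47.4% were bound (28.6 to 71.4%), and around the 8 unbound genes 50% (0 to 77.8%). The values of 0 were those of FASN3, which had 1 neighbour, and CPT2. FASN2, Mtpbeta, Etf-QO and Acox57D-d each had over 50% of their neighbours bound.

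Short motifs were sought, on both strands, in the 250 bp before each first start. GATC was present before 12 of the 33 genes (36.4%), beside 38.1% of all promoters of the same length. The E-box CACGTG, which SREBP-family and other basic helix-loop-helix factors bind, and the sterol response core TCACNCCAC were before none of the 33, beside 2.86% and 0.416% of all promoters. The core promoter motif GGTCACAC was before Hsl only, beside 4.21%. In the central 300 bp of the 47 peaks, GATC was present in 63.8%, beside 61% of all peaks. The E-box was in 1 peak (2.13%), beside 3.91% of all peaks, and the DRE in none, beside 1.26%. A match here is a match of letters and not a shown site.

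Of 145 other lipid genes, 82 were bound (56.6%), beside 38.5% of all protein-coding genes, with a median score of 5.43. Other glycerolipid synthesis genes were bound in 20 of 26 cases (76.9%), with laza, a lipid phosphate phosphatase, at 7.79 and bbc, a choline and ethanolamine phosphotransferase, at 7.74, and with Agpat1 and CG33116 unbound. Pcyt1, an enzyme of phosphatidylcholine synthesis, was among the unbound 6 although a peak of 8.31 overlapped it, because the list gives its older symbol Cct1 with the ID of another gene, a point seen after its value. Other peroxisomal genes were bound in 17 of 22 (77.3%), with CROT, a carnitine octanoyltransferase, at 8.21 and Pex14 of the import machinery at 7.15, and with Pex19 among the unbound. Other mitochondrial oxidation genes were bound in 9 of 13 (69.2%), with colt, the carnitine-acylcarnitine carrier that works between whd and CPT2, at 7.19 and CG3902 at 5.45, and with CG4860 and CG8778 unbound. The 6 transcription factors of lipid genes were all bound, with sug, a Zn-finger factor of sugar-responsive lipid synthesis, at 7.69 and bigmax, the partner of Mondo, at 6.86.

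The further elongases and acyl-CoA synthetases had the lowest shares of the 9 groups, both under the 38.5% of all genes. Of 19 further elongases 5 were bound (26.3%), with sit at 4.33 and CG31522 at 3.29, while CG16904 and CG17821 were not. Of 13 further acyl-CoA synthetases 2 were bound (15.4%), bgm at 6.25 and pdgy at 2.5, and AcCoAS2 and Acsf2 were among the 11 that were not. Further desaturases and their partners were bound in 5 of 9 (55.6%), with Cyt-b5 at 7.2 and ifc, the dihydroceramide desaturase, at 6.25, and with CG15531 and CG9747 unbound. Further lipases and droplet proteins were bound in 5 of 13 (38.5%), the same share as all genes, with AkhR, the adipokinetic hormone receptor, at 7.15 and Jabba, a droplet protein, at 5.76, with Akh and CG5966 unbound. Lipoproteins, receptors and carriers were bound in 13 of 24 (54.2%), with fabp, a fatty acid binding protein, at 7.93 and Fatp1, a fatty acid transport protein, at 7.45, and Acbp3 and Acbp4 unbound.

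Gene lists close in function were set beside these counts. TCA cycle enzymes, a list that also held pyruvate dehydrogenase genes such as Pdha and Pdhb, were bound in 20 of 25 cases (80%). Their median score was 5.8, with Ogdh at 9.46. Sterol trafficking and adrenodoxin genes were bound in 7 of 10 (70%, median 5.18), with Osbp at 6.31. Both shares stand beside 38.5% of all protein-coding genes. These shares were not tested against that of the 33 genes. The gland genes spok and phtm, which encode ecdysone synthesis enzymes, were not bound, with 775295 and 6577 bp to the nearest peak. Binding is not expression, so the labelled tissue could not be checked against its markers in these data.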

How the data were processed

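Genomic DNA from 4 Dam:KDM5 and 4 Dam samples was sequenced after DamID. The authors aligned reads to dm6, made Dam:KDM5 over Dam profiles with damidseq_pipeline, averaged the 4 profiles, called peaks with find_peaks (FDR 0.01, min_quant 0.9) and assigned them to genes with peaks2genes. Versions of these tools were not found in the text read. The deposited values are a binding score per peak and per gene, with an FDR per peak, and rest on pooled profiles, so neither depth nor replicate error is known.

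The 3 deposited tables were joined here to Ensembl release 115 with Python 3.11.15 (figures: matplotlib 3.10.9). Of 5815 listed gene IDs 5799 matched by ID and 11 by symbol. Gene spans run over all annotated transcripts. A shared peak counted for each gene it was listed with. Overlap code was tested on simulated data. The 33 genes and the further lists were chosen with earlier results of these data known. Named were all 33 genes, of each further group the 2 best-scoring bound genes and, by alphabet, 2 unbound ones (1 of them is not reported here), of the comparison lists the highest, and genes sharing a peak. No test was run. The alternatives were other definitions of a bound gene, a stricter FDR, a higher score and the mean of peaks.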

Additional observations from a re-analysis of the deposited data

How the results depend on the processing

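The count of bound lipid genes was 20 to 25 of 33 under the 7 other definitions, beside 25 on the authors' list. Of the role groups, SREBP and its processing proteins changed most. They came to 2 of 4 within 500 bp of a start, beside 32% of all genes. With 1 gene per peak they came to 2, beside 29%, and at the stricter FDR to 2, beside 29.2%. When only the 2465 peaks of highest score counted, 1 of 4 was left (25%), beside 20.7%. Lipid droplets and lipolysis came to 2 of 5 within 500 bp, beside 32% of all genes. The median score was 4.9 with the mean of a gene's peaks in place of its highest, with no all-gene value on that measure beside it. No paired analysis was possible because the files used here hold only the averaged profile. No replicate could be left out for the same reason.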
